A study of Caenorhabditis elegans with 2 samples.

Results

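The microRNA genes of Caenorhabditis elegans outside the embryonic families mir-35 to mir-42 and mir-51 to mir-56 were examined for chromatin association of ALY-1. The set held every gene that the Ensembl annotation of assembly WBcel235 classes as microRNA on the 6 nuclear chromosomes, less those families. It came to 247 of 261 microRNA genes, out of 46890 annotated genes. ALY-1 is a member of the Aly/REF proteins, nuclear adaptors that bind messenger RNA and link it to export. ChIP-seq, which sequences DNA bound by a protein, was run with anti-GFP on early embryos of hermaphrodite strain OP502. These worms carry unc-119(tm4063) and the transgene wgIs502, which makes ALY-1 with a C-terminal GFP-FLAG tag, and were collected 0 hours after synchronisation by egg bleaching. The 2 biological replicates formed 1 group, and an untagged immunoprecipitation was not used here. Whole embryos were used, so no signal can be placed in a cell type. Whether the 2 replicates came from embryos grown apart is not stated beyond their numbering.

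A microRNA is cut from a longer primary transcript, made by RNA polymerase II, first in the nucleus by the Drosha enzyme DRSH-1 with PASH-1 and then in the cytoplasm by Dicer, DCR-1. The product guides an Argonaute protein such as ALG-1 to messenger RNAs, chiefly through its seed, bases 2 to 8. Genes for microRNAs lie either between protein-coding genes, with promoters of their own, or within introns, where the host transcript can carry them. In mirtrons the intron itself is the hairpin, and splicing takes the place of the Drosha cut. In the worm, lin-4 and let-7 time larval development, mir-1 acts in muscle, and mir-124 is made in sensory neurons.

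The mature sequences of 11 microRNAs whose genes carried a thresholded peak are given here from RefSeq, with the seed in capitals, to show which of them share a seed or act in known pathways. They were not chosen by the strength of the peak. All come from the arm generally taken as the guide strand. The let-7 microRNA is shown for comparison with its relative mir-241.
lin-4: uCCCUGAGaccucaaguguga
let-7: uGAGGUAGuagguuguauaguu
mir-241: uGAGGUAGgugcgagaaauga
mir-80: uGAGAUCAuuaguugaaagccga
mir-62: uGAUAUGUaaucuagcuuacag
mir-90: uGAUAUGUuguuugaaugccccu
mir-43: uAUCACAGuuuacuugcugucgc
mir-250: aAUCACAGucaacuguuggc
mir-44: uGACUAGAgacacauucagcu
mir-61: uGACUAGAaccguuacucauc
mir-124: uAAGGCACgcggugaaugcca
mir-87: gUGAGCAAaguuucaggugugc

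ALY-1 peaks were found at a minority of these genes. The 881 thresholded peaks are the authors' optimal set from the irreproducible discovery rate procedure, derived from both replicates together. A peak of this set need not be among the strongest of each replicate. A gene is called bound where the summit of 1 of them lay between 1000 bp upstream and 200 bp downstream of its 5′ end. By that rule 21 of 247 genes were bound, a share of 8.50% (95% exact Clopper-Pearson interval 5.34 to 12.7%). The same share was 2.3% over all annotated genes, 3.31% once piRNA genes were left out, and 1.95% over protein-coding genes. Intervals cover counting error only, and genes that share a peak are not independent. The depth of the libraries is unknown.

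Candidates of any strength were about as common as elsewhere. A pooled candidate summit, thresholded or not, lay in the window of 107 genes (43.3%), against 37.4% of all genes but piRNA genes, and 140 had none. Candidate lists were made to include background, so a candidate alone is not a call. The 21 bound genes shared 19 peaks, because mir-43 with mir-44, and mir-250 with mir-61, each had the same summit in their windows. The peaks had signal values, the peak caller's score from the authors' list, of 86.2 to 126 with a median of 98.5. Over all thresholded peaks the signal ran from 85.5 to 643 with a median of 105, so none of the 19 was among the strongest. At the 86 genes with only a weaker candidate the signal ran from 23.1 to 83.6, with a median of 40.6.

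The bound share was higher among genes in introns than between genes, and every bound intronic gene had its host on the same strand. Of 91 intronic genes 12 were bound (13.2%, 7.0 to 21.9%), and of 148 intergenic genes 9 were (6.08%, 2.82 to 11.2%). The intervals of these shares overlap. With the summit required within 250 bp of the gene body the shares were close: 4 of 91 intronic genes (4.40%) and 6 of 148 intergenic genes (4.05%) were bound. Of the 69 intronic genes with a host on their own strand 12 were bound (17.4%, 9.32 to 28.4%), and of the 22 with a host on the opposite strand 0 were, which allows a share of up to 15.4%. That 0 depends on the edge of the window, since mir-8190, on the strand opposite its host hmr-1, had a thresholded summit of rank 196 at 1055 bp upstream. None of 8 genes that lie in an exon was bound (upper limit 36.9%). Other non-coding RNA genes, of the annotation class ncRNA, did not have this order of shares. Among them 3.8% were bound in an intron of a host on the same strand, 4.91% in an intron of a host on the opposite strand, and 4.81% in no intron. No test was made of the difference between these shares.

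**Figure D1:**
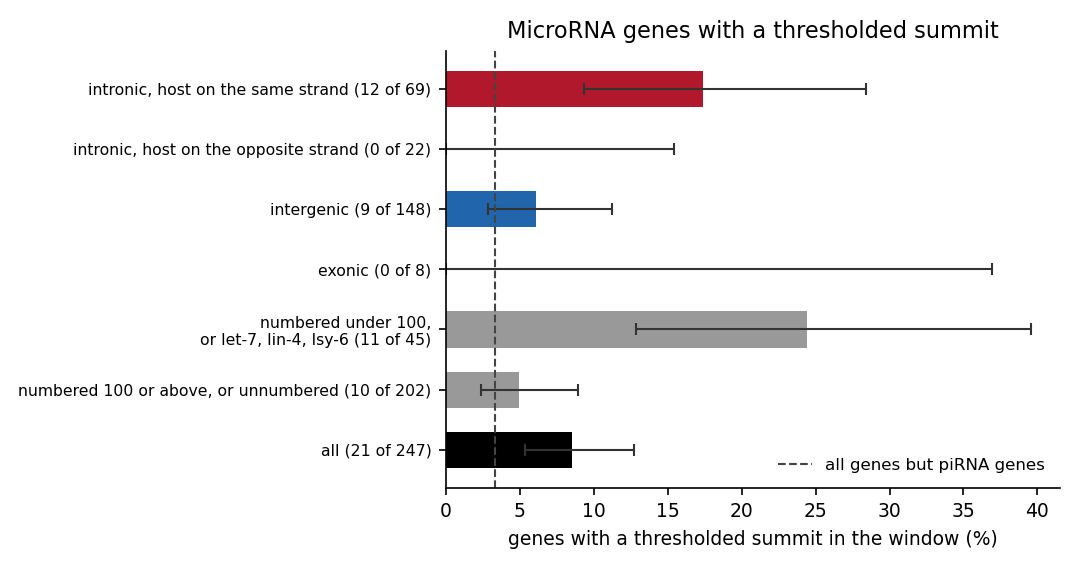
Bars give the share of microRNA genes, in percent, with a thresholded summit in the window, by position in or between genes and by number, with exact 95% intervals as whiskers; the dashed line is the 3.31% of all genes but piRNA genes. Genes in an intron of a host on the same strand stand at 17.4% and intergenic genes at 6.08%.

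Low-numbered genes, broadly those named first, had a higher share. Of 45 genes numbered under 100, with let-7, lin-4 and lsy-6, 11 were bound (24.4%, 12.9 to 39.5%), and of the other 202 genes 10 were (4.95%, 2.40 to 8.92%). The lower share was near the 3.31% of all genes but piRNA genes. This split by number was chosen after the values were seen. It ran through both positions: 6 of 17 low-numbered genes in introns were bound and 6 of 74 other intronic genes, and 5 of 27 low-numbered intergenic genes and 4 of 121 others. Chromosome IV had 1 bound of 47 genes (2.13%, 0.05 to 11.3%) and chromosome X 4 of 71 (5.63%, 1.56 to 13.8%). Both intervals include the 8.50% of the whole set, and no share over all genes is given by chromosome. The other 4 chromosomes had 3 to 5 each, of 27 to 41 genes.

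Developmental timing microRNAs were represented by lin-4 and mir-241. lin-4, which represses lin-14 and sets the passage out of the first larval stage, lies at chrII:5902254-5902347 (ce11, plus strand) in an intron of F59G1.4. Its peak ranked 579 in the pooled list, with a signal of 97.2, and the overlapping peak ranked 1528 in replicate 1 and 514 in replicate 2. Only replicate 2 had it among its 881 strongest. mir-237, which shares the lin-4 seed, had no pooled candidate.

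mir-241, which acts with mir-48 and mir-84 in larval timing, lies between genes at chrV:14366188-14366283 (minus strand). Its peak ranked 750 in the pooled list (signal 89.9), 467 in replicate 1 and 4520 in replicate 2, among the strongest 881 of replicate 1 only. It was the bound gene among the 7 of the let-7 family. let-7 itself, mir-48, mir-793 and mir-794 had no pooled candidate in the window, while mir-84 ranked 8038 and mir-795 ranked 8270. The let-7 gene is annotated as a primary transcript of 1732 bp, so its window lies at the start of that transcript and not at the hairpin.

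Among the tissue microRNAs, mir-1, mir-124 and mir-87 were bound, 3 of the 8 listed. mir-1, the muscle microRNA, lies between genes at chrI:6172662-6172757. Its peak ranked 298 (signal 117) in the pooled list, 1182 in replicate 1 and 248 in replicate 2. mir-124, in an intron of the ion channel gene trpa-1 at chrIV:11871738-11871833, ranked 600 (signal 96.2), then 376 and 1452 in replicates 1 and 2. mir-87, in an intron of kup-1 at chrV:12038688-12038781, ranked 810 (signal 87.9), then 314 and 2607. The first of these peaks was among the strongest of replicate 2 only and the other two were among those of replicate 1 only. Below the threshold, mir-2 ranked 1640, mir-57 ranked 2679 and mir-228 ranked 3402. lsy-6, which sets the left-right difference of a taste neuron pair, and mir-34 had no pooled candidate.

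The mir-58 family and the mir-44 group each had bound members. mir-80, an intergenic gene at chrIII:8865270-8865367 of the mir-58 family, whose seed resembles that of the Drosophila bantam microRNA, had the second strongest peak of the set. It ranked 267 (signal 121) in the pooled list, 144 in replicate 1 and 934 in replicate 2. Its relatives mir-81 and mir-82 ranked 10068 and 18247, and mir-58.2 had no pooled candidate. mir-58.1 had no pooled candidate in the window, but a thresholded summit of rank 127 (signal 170) lay 225 bp downstream of its 5′ end, just past the limit of 200 bp.

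The neighbours mir-43 and mir-44, at chrII:11889910-11890007 and chrII:11890023-11890118, were called through a single peak of rank 470 (signal 103). It ranked 423 and 432 in replicates 1 and 2, and was therefore nearly even between them. The peak, chrII:11889425-11889908, ended before both genes, with the summit 243 and 356 bp upstream of their 5′ ends. It covered mir-42, a gene of the families left out, at chrII:11889811-11889905, whose 5′ end was nearer, 144 bp from the summit. mir-61, which acts in vulval fate downstream of Notch signalling and shares its seed with mir-44, lay with mir-250 under another peak, of rank 491 (signal 102), then 415 and 1444. mir-45 was the strongest gene below the threshold, at rank 944 (signal 83.6). With mir-247, which had no pooled candidate, the genes listed as the mir-44 group had 3 of 5 bound, mir-43 and mir-44 through the same peak. mir-43 has the seed AUCACAG, and of the 4 genes with the mir-44 seed, GACUAGA, 2 were bound.

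Some bound genes share a seed, though most shared seeds had no bound gene. Of 43 seeds carried by at least 2 genes, 32 had none bound and 3 had at least 2. Of the 14 carried by at least 3 genes, 7 had none bound, among them GGCAAGA (mir-72, mir-73, mir-74 and others, 0 of 6) and AUGACAC (mir-63 to mir-66 and mir-229, 0 of 5). The seed GAUAUGU is carried by mir-50, mir-62 and mir-90, and all 3 genes were bound. They lie on different chromosomes, each in an intron of its own host. Of the 4 genes with AUCACAG (mir-2, mir-43, mir-250 and mir-797) 2 were bound, and of the 4 with GACUAGA (mir-44, mir-45, mir-61 and mir-247) 2 were. GAGAUCA had 1 bound of 6, GAGGUAG 1 of 5, UGAGCAA 1 of 3, CCCUGAG 1 of 2, and AAGGCAC its single gene. No test was made over seeds. Mature sequences were found for 246 of the 247 genes, giving 359 distinct seeds over 430 arms, so most seeds belong to few genes. Since mir-43 and mir-44 share a peak, as do mir-61 and mir-250, the AUCACAG and GACUAGA counts rest on the same summits.

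The intronic genes with the strongest peaks were mir-62 and F09A5.15. mir-62 is a mirtron at chrX:12692608-12692665 that fills a 58-bp intron of ugt-50, a glucuronosyltransferase gene. Its peak was the strongest of the set, at rank 245 (signal 126), and ranked 197 in replicate 1 and 369 in replicate 2. It was among the strongest 881 of both. The summit lay 375 bp upstream of the microRNA, in an exon of ugt-50. The other listed mirtrons, mir-1018, mir-1019 and mir-1020, had no pooled candidate. The annotation used here places mir-1018 between genes and gives it no host intron. Of 8 genes that fill their intron to within 2 bp, mir-62 was the bound 1. F09A5.15, which the Ensembl annotation names mir-55b, lies in an intron of F09A5.3 on chromosome X and ranked 445 (signal 105), then 253 and 1193. It spans chrX:13144830-13144919 on the plus strand, antisense to mir-55 at chrX:13144827-13144924, so it sits at the locus of a family that was left out. It was kept because the genes left out were those named mir-51 to mir-56.

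The remaining bound intronic genes had lower ranks. mir-90, in an intron of K01F9.2 at chrIII:8873987-8874084, ranked 477, then 744 and 440, in the strongest 881 of both replicates. mir-8192, in the folliculin gene flcn-1, ranked 520, then 818 and 630, and mir-50, in the talin gene tln-1, ranked 551. The replicate 1 peak that overlaps the mir-50 peak most ranked 4620, but another replicate 1 summit in the same window ranked 353. mir-71, which prolongs life span and lies in ppfr-1, a phosphatase 4 regulatory subunit gene, ranked 747, then 485 and 1795. mir-8211, in Y56A3A.7, ranked 782, then 1153 and 994, and was the peak outside the strongest 881 of both replicates. Of the intergenic genes not yet named, mir-2211 ranked 386, then 665 and 353, and mir-271 ranked 857, then 709 and 2130.

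Across the 19 peaks the replicates differed widely in rank. Both had the overlapping peak among their own 881 strongest at 5 peaks, replicate 1 alone at 9, replicate 2 alone at 4 and neither at 1. Over all thresholded peaks both did at 444 of 881 (50.4%), and among those no stronger than the mir-62 peak at 212 of 637 (33.3%). The rank was better in replicate 1 at 11 peaks and in replicate 2 at 8. Replicate 1 ranked better at 46.5% of all thresholded peaks, and at 46.9% of those no stronger than the mir-62 peak. Genes were also called by any summit in the window from a single replicate's strongest 881. That gave 21 of 247 in replicate 1 and 12 of 247 in replicate 2. All genes but piRNA genes gave 3.19% and 3.12%, so the margin over that background was smaller in replicate 2. Both lists named 7 genes and either named 26, and no share over all genes is given for these counts.

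**Figure D2:**
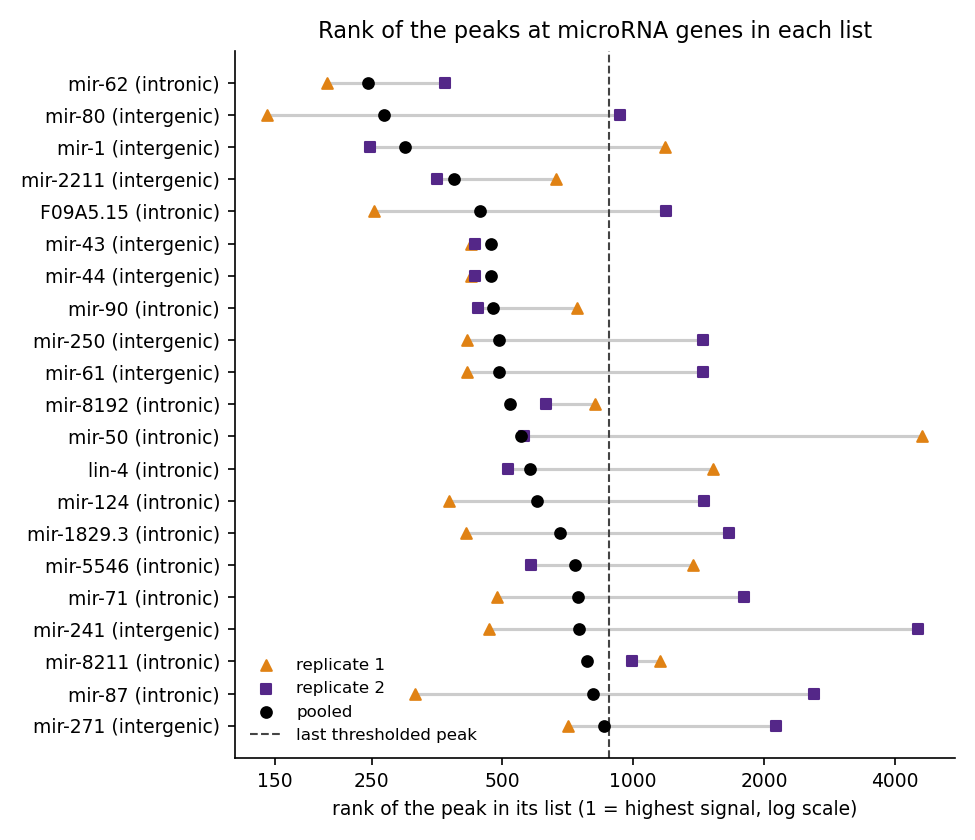
Each line is a bound microRNA gene; the horizontal log axis gives the rank of its peak by signal in the pooled list (circles) and of the overlapping peak in replicate 1 (triangles) and replicate 2 (squares), and the dashed line marks rank 881. The mir-241 peak ranks 467 in replicate 1 and 4520 in replicate 2, while the peak of mir-43 and mir-44 ranks 423 and 432.

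Genes called from 1 replicate but not from the pooled list were few. In replicate 1 they were mir-2, rank 802, and mir-64, mir-65 and mir-66, which share 1 peak of rank 865 in an intron of gcn-1. In replicate 2 they were mir-49, rank 539, and mir-58.1, rank 133. The mir-49 peak ranked 12147 in replicate 1, the widest gap among these genes. In the pooled list mir-49 ranked 1286, mir-64 to mir-66 ranked 1375 and mir-2 ranked 1640. None of the 5 genes listed as the mir-64 cluster was bound. Of that list mir-63 shares the seed AUGACAC but lies on chromosome X, apart from the others in gcn-1. Other genes below the threshold were mir-46 (1154), mir-8190 (1195), mir-8186.2 (1726) and mir-4936 (1758). Of the 4 genes listed as the mir-72 group mir-71 alone was bound, with mir-72 at rank 4156 and mir-73 and mir-74 together at 4767. mir-71 lies on another chromosome than the rest of that list and lacks their shared seed, GGCAAGA.

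The threshold and the window both had genes close to them. The last bound gene, mir-271, had a signal of 86.2 and the next, mir-45, 83.6. Thresholded summits lay just beyond the window at mir-8190 (rank 196, 1055 bp upstream), mir-86 (rank 782, 1167 bp, the peak of mir-8211), mir-59 (rank 377, 1596 bp) and mir-2208.1 (rank 578, 1751 bp).

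Of the 21 bound genes 18 had the summit upstream of the 5′ end (85.7%), as did 69 of the 86 genes with a weaker candidate (80.2%). Both shares are near the 83.3% of window positions that lie upstream. Between 200 and 500 bp upstream, a band of 25% of the window, lay the summits of 12 of the 21 bound genes (57.1%). For genes with a weaker candidate it was 24 of 86 (27.9%). This band was not among the planned results, so its shares only describe these genes. Genes that share a summit are each counted, as with mir-43 and mir-44. The median position was 312 bp upstream for bound genes and 203 bp for weaker ones, and the difference was not tested. Of the bound genes 10 had the summit in an intron, 2 in an exon and 9 outside any protein-coding gene. The same window around the 5′ end of a coding gene held the summit for 4 of 21 bound and 20 of 86 weaker genes. These 4 were mir-61 and mir-250, with the summit 321 bp upstream of F55A11.4, mir-5546, 68 bp upstream of Y71F9AL.25, and mir-271, 148 bp upstream of unc-78, an actin-interacting protein gene.

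**Figure D3:**
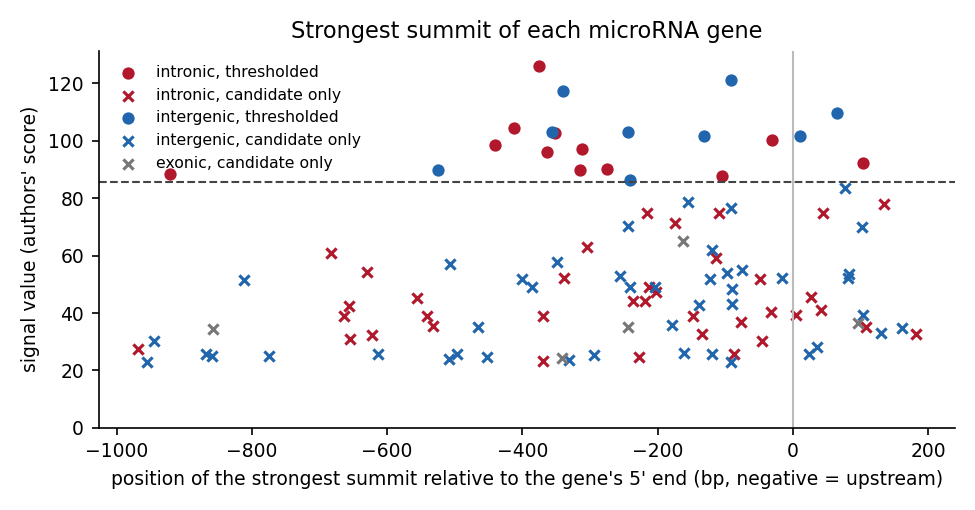
The signal value of the strongest pooled summit of each microRNA gene (vertical axis, the authors' score) is plotted against its position in bp from the 5′ end (negative values upstream), with circles for bound genes, crosses for genes with only a weaker candidate, colours for intronic, intergenic and exonic genes, and a dashed line at the lowest thresholded signal, 85.5. Circles have a median position of 312 bp upstream and crosses of 203 bp, in a window of which 83.3% is upstream.

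The bases around the summit are shown for genes that represent these positions: an intron (lin-4, mir-90), an exon of the host (mir-62), intergenic sites close to the hairpin (mir-80), ahead of a shared cluster (mir-44) and far from the hairpin (mir-241). Each run is 50 bp on either side of the summit, on the strand of the gene, in ce11 coordinates, from the RefSeq genome of WBcel235.
lin-4, chrII:5901892-5901992, plus: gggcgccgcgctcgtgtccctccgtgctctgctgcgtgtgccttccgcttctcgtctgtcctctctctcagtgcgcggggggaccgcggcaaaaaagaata
mir-90, chrIII:8874385-8874485, minus: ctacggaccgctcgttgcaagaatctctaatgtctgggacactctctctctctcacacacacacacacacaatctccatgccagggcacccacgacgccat
mir-62, chrX:12692183-12692283, plus: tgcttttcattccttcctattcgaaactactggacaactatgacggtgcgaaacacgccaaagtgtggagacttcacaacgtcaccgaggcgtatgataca
mir-80, chrIII:8865408-8865508, minus: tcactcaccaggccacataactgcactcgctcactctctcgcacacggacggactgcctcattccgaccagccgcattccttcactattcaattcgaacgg
mir-44, chrII:11889617-11889717, plus: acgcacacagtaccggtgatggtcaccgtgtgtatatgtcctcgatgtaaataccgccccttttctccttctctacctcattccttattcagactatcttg
mir-241, chrV:14366757-14366857, minus: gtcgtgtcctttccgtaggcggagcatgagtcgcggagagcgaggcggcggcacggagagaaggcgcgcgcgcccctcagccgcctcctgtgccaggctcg

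These windows ranged in G+C from 46.5% at mir-62 and mir-44 to 65.3% at lin-4 and 72.3% at mir-241. Over 150 bp on either side, the median G+C was 51.5% at the 19 peaks, 47.8% at all thresholded summits and 41.2% at all pooled candidates. Among bound genes, mir-61 had the summit inside the annotated gene, 10 bp past its 5′ end, which is the base in capitals. At 11 of the 86 genes with a weaker candidate the summit also lay inside the gene.
mir-61, chrV:11770060-11770156, minus: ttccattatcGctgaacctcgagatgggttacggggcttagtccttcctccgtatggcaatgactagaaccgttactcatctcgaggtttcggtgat

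Promoters were searched on both strands, from 250 bp before to 50 bp after the 5′ end, for 3 motifs. CTCCGCCC, an element described upstream of worm microRNA genes, was present in 6 of 21 bound genes (28.6%), 13 of 226 others (5.75%) and 646 of 31527 genes of all kinds but piRNA genes (2.05%). Its holders are shown with 20 bp on either side and the match in capitals; at mir-61 it reads on the opposite strand.
mir-80, chrIII:8865506-8865553, minus: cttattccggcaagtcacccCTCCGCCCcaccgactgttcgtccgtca
mir-90, chrIII:8874202-8874249, minus: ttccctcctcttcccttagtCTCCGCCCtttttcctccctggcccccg
mir-61, chrV:11770325-11770372, minus: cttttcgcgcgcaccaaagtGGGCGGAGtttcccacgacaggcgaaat
mir-8192, chrII:6943811-6943858, plus: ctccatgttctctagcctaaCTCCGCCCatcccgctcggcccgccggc
lin-4, chrII:5902059-5902106, plus: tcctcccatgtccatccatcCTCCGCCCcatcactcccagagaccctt
mir-124, chrIV:11871553-11871600, plus: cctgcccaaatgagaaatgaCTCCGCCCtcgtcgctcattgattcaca

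In 5 of these 6 genes the match lay 141 to 192 bp upstream of the 5′ end, and in mir-8192 51 bp. The summit was 21 bp from the match at mir-8192, 71 bp at mir-80, 140 bp at lin-4, and 202 to 210 bp at the others. Median G+C of the same promoters was 44.7% for bound genes, 38.3% for other microRNA genes and 35.3% for all genes but piRNA genes. Among the holders lin-4, mir-61, mir-80 and mir-90 belong to the low-numbered set, which made up 11 of the 21 bound genes. The part of base composition, or of the low-numbered set, in the motif counts was not tested. TATAAA was in 19.0% of bound, 29.6% of other microRNA and 34.2% of all promoters. The core of the tRNA B box, GGTTCGA, was in 1 bound promoter, that of mir-1829.3, in 9 others and in 2.71% of all. Within 150 bp of the summit CTCCGCCC was present at 3 of 19 peaks (15.8%), 4.09% of thresholded summits and 1.96% of candidates. There TATAAA was at 21.1% of the 19 peaks, 12.9% of thresholded summits and 20.2% of candidates, and GGTTCGA at 10.5%, 16.8% and 3.23%. None of the motifs contains another, and a match describes the sequence only.

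**Figure D4:**
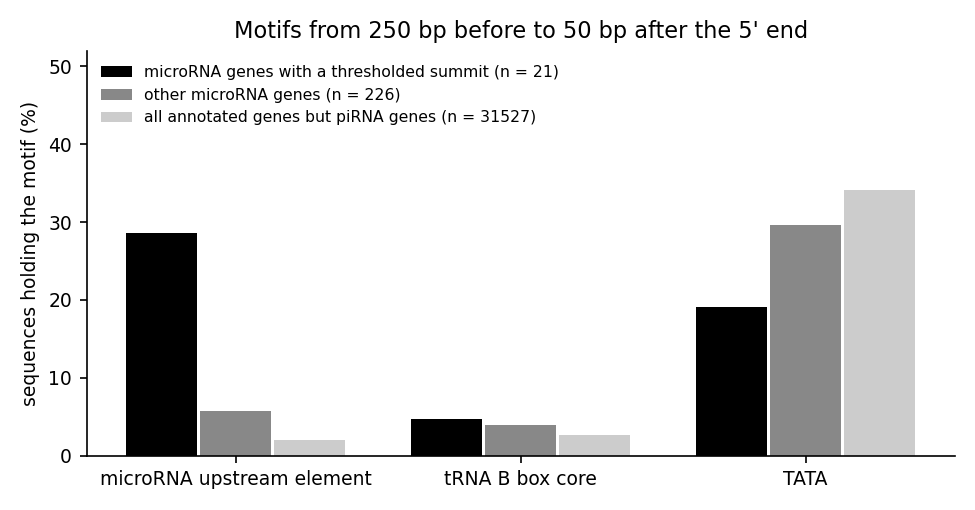
Bars give the percentage of sequences, from 250 bp before to 50 bp after the 5′ end, that hold each motif, for 21 bound microRNA genes, 226 other microRNA genes and 31527 genes of all kinds but piRNA genes. The microRNA upstream element is in 28.6%, 5.75% and 2.05% of them.

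A tRNA or snoRNA gene lay within 250 bp of the summit at 4 of the 107 genes with a candidate (3.74%), against 2.25% of all pooled candidate summits. Among bound genes it was 2 of 21 (9.52%), against 232 of 881 thresholded summits (26.3%). Of the 103 genes with a candidate and no such neighbour 19 were bound, and of the 4 with one 2 were. These counts start from genes that already had a candidate, so they do not compare with shares over all genes. mir-1829.3, in an intron of the kinase gene piki-1, had the tRNA gene F39B1.t1 there and ranked 680 (signal 92.2), then 412 and 1658. mir-5546, in arx-1, an actin-related protein gene, had the snoRNA gene Y71F9AL.24 and ranked 734 (signal 90.4), then 1374 and 581. The summit at mir-239.1 and mir-239.2, near the snoRNA gene C34E11.20, had rank 29013. A non-coding RNA gene on the opposite strand overlapped 10 of 21 bound genes and 17 of 226 others, and one on the same strand 0 of 21 and 18 of 226. This comparison was not among the planned results, and no share over all genes is given. All of the 10 but mir-124 and mir-271 belong to the low-numbered set, whose part in these counts was not tested. Peaks have no strand, so the signal cannot be divided between a microRNA gene and its antisense partner.

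The list of microRNA pathway genes was broad, and held genes such as sup-26 and the heterochronic lin-66 and lin-28 besides machinery genes such as drsh-1 and alg-1. Of its 22 genes that were found 4 were bound, against 1.95% of protein-coding genes. The count fell to 1, lin-66, in a window of 500 bp before to 100 bp after the 5′ end, where 1.24% of protein-coding genes were bound, because the summits at alg-1, ain-1 and sup-26 lay 754, 774 and 840 bp upstream. sup-26, an RNA-binding protein gene, ranked 181 in the pooled list (signal 143), 80 in replicate 1 and 171 in replicate 2. The Argonaute gene alg-1 ranked 328 (signal 114.6), then 1766 and 228. ain-1, the GW182 partner of Argonaute, ranked 495 (signal 102), then 455 and 346, and the heterochronic gene lin-66 ranked 569 (signal 97.7), then 1855 and 344. Candidates were present at 18 of the 22, among them alg-5 at rank 946, drsh-1 at 1358 and lin-28 at 2387, while pash-1 and dcr-1 ranked 21692 and 25842.

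In the families left out, mir-42 was the bound gene of 8 in mir-35 to mir-42, through the same peak as mir-43 and mir-44. In mir-51 to mir-56, mir-51 and mir-52 were bound, at a best rank of 3 (signal 552).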

How the data were processed

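Peaks came from early embryos in 2 biological replicates of 1 group. Per the file listings deposited with the samples, candidate lists of 30000 peaks were called on each replicate and on both pooled, with a single control alignment, and the optimal set passing IDR was derived from them. The sources used here do not give the aligner, the caller, their versions or the IDR cut-off. Each peak has a score, or signal value, from the authors' peak caller, and peaks were ranked by it list by list. The deposited lists also give −log10 q, which was 2.22 to 2.73 at the 19 peaks of bound genes. At the strongest summits of the 86 genes with a weaker candidate it was 0.06 to 2.32, so the 2 ranges overlap. The 881 thresholded peaks were checked to be the 881 strongest of the pooled list. Depth is unknown. Only ce11 lists were used, because gene annotation of ce10 was not used here.

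Genes came from Ensembl release 115 of WBcel235, symbols, mature microRNAs and genome sequence from RefSeq. A gene took the strongest pooled summit in its window, and a replicate rank is that of the peak with the largest overlap. A gene is intronic where it lies in an intron of a protein-coding gene. Rates are counts with exact Clopper-Pearson intervals, and no p-value was computed. Members, lists and motifs were chosen with earlier results of these data known. Genes named are all bound genes, the 10 strongest below the threshold, listed groups, bound pathway genes and genes among the strongest of 1 replicate only; genes just outside the window, host genes and neighbours were named after their values were seen. Alternatives were other windows, peak overlap, a stricter threshold, single replicates and other distances to tRNA or snoRNA genes. Counting was tested on simulated data. Software was scipy 1.17.1, pandas 2.3.3, numpy 2.4.6 and matplotlib 3.10.9 under Python 3.11.15.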

Additional observations from a re-analysis of the deposited data

How the results depend on the processing

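The 21 bound genes became 18 when the window was narrowed to 500 bp before and 100 bp after the 5′ end, 26 when it was widened to 2000 and 500 bp, 24 with any overlap of the peak, 19 with shared peaks counted once, 19 without summits near tRNA or snoRNA genes and, chosen after seeing the data, 20 without F09A5.15. A summit within 250 bp of the gene body left 10, of which 4 were intronic and 6 intergenic. The 440 strongest thresholded peaks left 4. A share over all genes is given only for the main window and for the single replicates. The counts from other windows, peak overlap, the gene-body rule and the stricter threshold have no such background beside them. A wider window can only add genes, of any kind. Using 1 replicate, the count ran from 12 without replicate 1 to 21 without replicate 2, intronic genes from 7 to 13 and intergenic genes from 5 to 8. Genes with a tRNA or snoRNA gene near the summit numbered 2 within 100 bp and 5 within 500 bp, against 4 within 250 bp. With the narrower window 1 gene of the microRNA pathway list was bound instead of 4. Genes with any candidate ran from 82 to 158 over the other windows, also without a share over all genes. The cause of these changes was not tested. Depth is unknown, so its limit on weak peaks could not be set. No paired analysis was possible because both replicates belong to 1 group.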

Other observations

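Non-coding RNA genes overlapped bound microRNA genes on the opposite strand at mir-1 (T09B4.14), mir-43 (ZK930.12), mir-50 (Y71G12B.36), mir-71 (F16A11.6), mir-80 (K01F9.6), mir-87 (F10C2.11), mir-90 (K01F9.7), mir-124 (C29E6.8), mir-271 (C04F6.8) and lin-4 (F59G1.10). Of these 10 genes, 6 lie in an intron of a host on their own strand, so the locus has annotated transcripts on both strands.

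A GA repeat was searched for after the summit sequences had been read. GAGAGAG, on either strand, was present within 150 bp of the summit at 7 of 19 peaks (36.8%), at 23.4% of all thresholded summits and at 9.73% of all pooled candidates. In promoters from 250 bp before to 50 bp after the 5′ end it was in 5 of 21 bound genes (23.8%), 25 of 226 other microRNA genes (11.1%) and 7.37% of all genes but piRNA genes.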
